A study of Homo sapiens with 9 samples.

Results

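Homologous recombination and Fanconi anemia genes were followed in HCC827 cells with and without a hairpin against CBX5. The set held 45 genes, chosen by name, out of 60675 rows of the count table. All 45 names matched 1 Ensembl gene each in GENCODE 29, and 40 passed the filter on low counts. HCC827 is an established human lung adenocarcinoma line with an activating EGFR mutation. Per the labels, all cells carried a stable hairpin and grew in DMEM with serum. The control cells had the control hairpin NS, and the other 2 lines had hairpin G1 or hairpin G7 against CBX5, which encodes the heterochromatin protein HP1 alpha. Each group had 3 libraries of oligo-dT selected RNA, 9 in all. The labels do not say whether replicates came from separate transductions, so p-values measure the spread between these libraries, which may be that within 1 line per hairpin. Hairpin sequences were not used here, and both comparisons with control share the same NS libraries.

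Homologous recombination repairs DNA double-strand breaks and broken replication forks from the sister chromatid. The broken end is resected to single-stranded DNA, BRCA2 and its partners load the strand exchange recombinase there, and the joint molecules made are then dissolved or cut. The Fanconi anemia pathway repairs crosslinks between the DNA strands: a core complex attaches ubiquitin to FANCD2 and FANCI, and nucleases and recombination finish the repair. The kinases ATM and ATR signal breaks and stalled forks to CHEK2 and CHEK1. Many of these genes are transcribed mostly in S and G2 phase, and tumors that lose BRCA1 or BRCA2 are treated with PARP inhibitors.

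Library totals ran from 12701561 to 22372353 counts, and tested set members had 38 or more counts in every library. Gene positions are those of GENCODE 29 on GRCh38. CBX5 (chromosome 12, 54230940 to 54280133) had 369.7, 377 and 361 CPM in the control libraries, 142, 142 and 143 with G1 and 204, 204 and 202 with G7, where CPM is counts per 1000000 counts of the library after TMM scaling. Its log2 change was -1.38 ± 0.039 (standard error, SE) with G1 and -0.86 ± 0.038 with G7. G7 replicate 3 stood apart from the other G7 libraries, at 22.6 and 17.9 in chi-square over degrees of freedom when set beside each of them, where the pair itself gave 1.46. It also had the highest share of mitochondrially encoded counts of all libraries, 19.82%, beside 14.38% and 14.63% in G7 replicates 1 and 2. The chi-square values took in these genes. Of 9 epithelial markers 7 had counts, led by KRT8, and NKX2-1 and NAPSA were listed at 0. Of 10 markers of leukocytes, fibroblasts and endothelium, 7 stayed under 1 CPM in every group, and PECAM1, CDH5 and COL1A1 did not (73.4, 14.04 and 14.4 CPM with NS). The summed level of 4 genes of cycling cells (MKI67, TOP2A, CCNB1, CCNA2) was 876 to 959 CPM with NS, 1185 to 1259 with G7 and 1658 to 1738 with G1, and all 4 were called higher with each hairpin. These levels moved with the rises reported here, and their part in them was not tested. In bulk RNA a larger share of cells in S and G2 phase and more RNA per cell cannot be told apart.

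With G1, most of the tested set rose. Of 40 tested genes, 27 were called higher (67.5%) and 5 lower (12.5%), at an adjusted p under 0.05 (edgeR, quasi-likelihood, with the Benjamini-Hochberg method applied over 13264 genes). Over all tested genes 59.1% were called, 30.4% higher and 28.7% lower. The set's median log2 change was 0.59 beside -0.011 for all genes. EXO1, RAD54L, BARD1, RAD54B and BLM rose by more than 2-fold. The share of all genes past 2-fold was not computed for either hairpin. The call was not reached for 8 members, none of which had an unadjusted p under 0.05. With G7, 18 were called higher (45%) and 1, ATM, lower (2.5%), where 22.7% of all genes were called, 13.1% higher and 9.64% lower. The set's median log2 change was 0.17 beside 0.009, and no member changed by 2-fold. Without G7 replicate 3, 19 were higher and 2 lower, the second being RAD50 at -0.23 (edgeR adjusted p = 0.0134). With each library left out in turn, 17 to 19 members were called higher with G7.

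**Figure D1:**
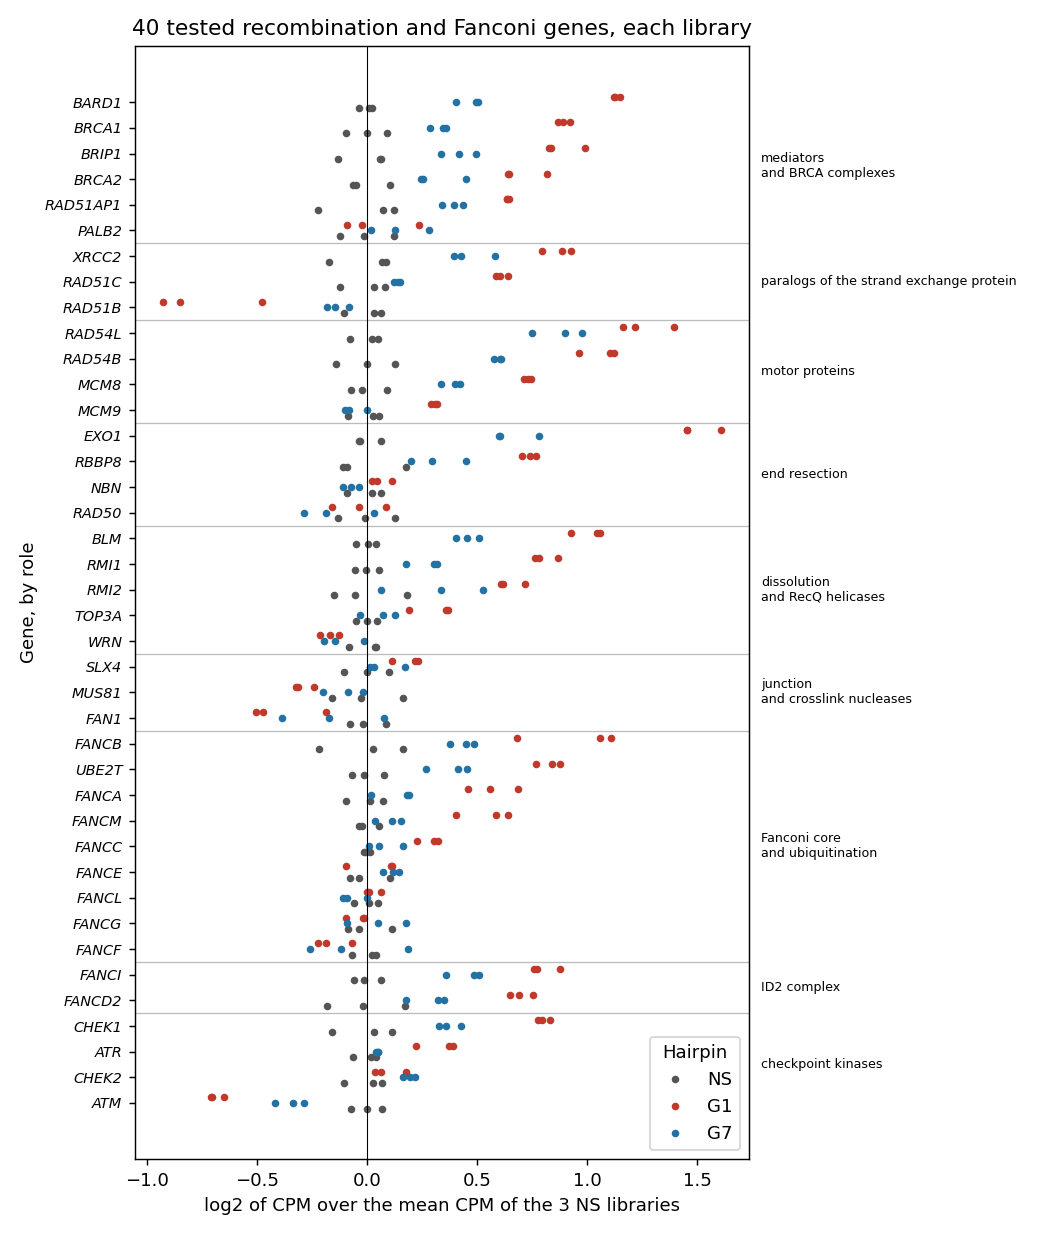
Each point is 1 library: the x axis gives the log2 of its CPM over the mean CPM of the 3 NS libraries for each of the 40 tested genes, grouped by role on the y axis, with NS in grey, G1 in red and G7 in blue. In the genes called higher with G1, all G1 points lie right of all NS points. In those called lower with G1, among them ATM and RAD51B, they lie left of them. The share of all tested genes with such separation was not computed.

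With upper quartile scaling, the split over all genes was 3066 higher and 4815 lower with G1, against 4031 and 3806 with TMM, and 1398 and 1603 with G7, against 1735 and 1279. The set then had 26 higher and 6 lower with G1 and 18 and 1 with G7.

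Promoter letters were read around the genes' RefSeq starts, to show what members that moved together have in common besides their role. Of the 45 genes 40 had a 300-base window in the RefSeq table (GRCh38.p14), from 250 bases before to 50 after a start, and RAD54B, NBN, RMI2, WRN and FANCI had none. An E2F site was searched on both strands as TTT, then 2 bases that are each C or G, then CGC. It was found in 8 of the 40 members (20.0%), against 6.44% of 10051 tested genes and 3.99% of 27305 genes in the table. All 7 tested members that held it were among those called higher with G1, with a median log2 change of 0.73 (0.286 to 1.502), and of the 28 tested members without it 17 were called higher too, with a median over the 28 of 0.32. The other holder, GEN1, was not tested. Of all 647 tested genes with the site, 41.9% were called higher with G1, and of the 9404 without it 32.2%. The 30 bases around each match follow, on the strand of the gene, with the match in capitals.
XRCC2, chr7:152676102-152676131, minus strand: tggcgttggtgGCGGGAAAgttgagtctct
MCM8, chr20:5950667-5950696, plus strand: ggatcactgaaGCGCCAAAaaagaatttag
EXO1, chr1:241848197-241848226, plus strand: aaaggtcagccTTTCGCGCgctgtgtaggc
RMI1, chr9:83980762-83980791, plus strand: ggcgcgagcgcGCGGCAAAtcgggcgggaa
GEN1, chr2:17753859-17753888, plus strand: cagttgcggggTTTCGCGCcgccggagtct
FANCA, chr16:89816801-89816830, minus strand: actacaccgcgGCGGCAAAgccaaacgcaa
FANCC, chr9:95317863-95317892, minus strand: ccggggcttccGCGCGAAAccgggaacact
FANCC, chr9:95317737-95317766, minus strand: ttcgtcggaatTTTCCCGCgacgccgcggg
FANCD2, chr3:10026424-10026453, plus strand: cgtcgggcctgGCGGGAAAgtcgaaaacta
The matches in XRCC2, MCM8, EXO1 and GEN1 lie just after the start, that of FANCD2 spans it, and those of RMI1, FANCA and FANCC lie before it. As printed, XRCC2 and FANCD2 share the same 8 letters, as do EXO1 and GEN1, and RMI1 and FANCA. The FANCC matches are those of EXO1 and XRCC2 read on the other strand. The CCAAT box (CCAAT, both strands) was in 50% of members and 42.58% of tested genes, the CHR element (TTTGAA, both strands) in 10% and 13.81%, and the NRF1 palindrome (GCGCA joined to its reverse complement) in 5% and 2.6%. Of 17 tested members with a CCAAT box 12 were called higher with G1 (median 0.646), and of 18 without it 12 (0.32). For the CHR element these were 3 of 4 (0.556) and 21 of 31 (0.565). For the NRF1 palindrome they were 2 of 2 (0.46) and 22 of 33 (0.565). Of all tested genes with a CCAAT box 34.9% were called higher with G1, with a CHR element 35.2% and with the NRF1 palindrome 38.7%. A larger median in holders was thus not particular to the E2F site. A match in these letters is a description and not a shown binding site.

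Among the mediators, BRCA1 and its partner BARD1, which together form a ubiquitin ligase, rose with both hairpins. BARD1 (ENSG00000138376, chromosome 2, 214725646 to 214809711) had 24.6, 24.3 and 23.6 CPM in the control libraries, 53.5, 52.5 and 52.8 with G1 and 32.0, 34.0 and 34.2 with G7. The groups did not overlap, and G1 libraries lay at more than double the control level. Its log2 change was 1.13 ± 0.057 with G1 (edgeR adjusted p = 7.87e-12) and 0.47 ± 0.059 with G7 (adjusted p = 1.64e-05). BRCA1 (ENSG00000012048, chromosome 17, 43044295 to 43170245) had 56.3, 52.8 and 49.4 CPM in the control libraries, 96.4, 97.8 and 100.1 with G1 and 67.0, 64.3 and 67.7 with G7. Its libraries separated in the same order, and the log2 change was 0.90 ± 0.052 with G1 (adjusted p = 5.62e-11) and 0.33 ± 0.053 with G7 (adjusted p = 1.79e-04). The helicase BRIP1, a BRCA1 partner, rose by 0.88 with G1 and 0.41 with G7, the recombinase loader BRCA2 by 0.70 and 0.32, and RAD51AP1, which aids joint formation, by 0.65 and 0.40. PALB2, the protein that joins BRCA1 to BRCA2, did not follow them. It had 30.3, 33.2 and 28.1 CPM in the control libraries, 30.1, 28.7 and 36.0 with G1 and 30.9, 33.4 and 37.1 with G7, the groups overlapped, and its log2 changes of 0.047 ± 0.089 and 0.15 ± 0.087 were not called (edgeR adjusted p = 0.669 and 0.241).

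The paralogs of the strand exchange protein, which stabilise its filament, split. XRCC2 (ENSG00000196584, chromosome 7, 152644779 to 152676165) had 30.2, 30.6 and 25.6 CPM in the control libraries, 53.2, 50.1 and 54.7 with G1 and 37.9, 38.8 and 43.1 with G7. No hairpin library overlapped the controls, and it rose by 0.87 ± 0.073 with G1 and 0.48 ± 0.074 with G7 (edgeR adjusted p = 8.59e-09 and 1.47e-04). RAD51C rose by 0.61 ± 0.070 with G1, and its G7 change of 0.14 ± 0.072 was not called. RAD51B (ENSG00000182185, chromosome 14, 67819779 to 68730218) went the other way, with 4.76, 5.36 and 5.24 CPM in the control libraries, 3.67, 2.85 and 2.69 with G1 and 4.63, 4.84 and 4.52 with G7. All G1 libraries lay below all NS and G7 libraries, while G7 and NS overlapped. Its log2 change was -0.74 ± 0.15 with G1 (adjusted p = 2.74e-04) and -0.14 ± 0.13 with G7 (adjusted p = 0.488), and the G1 minus G7 difference was -0.60 ± 0.14 (adjusted p = 0.00214). This was the largest fall in the set, at a level of few counts (42 to 62 per G1 library). RAD51D and XRCC3 were listed at 0 in all 9 libraries.

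Motor proteins rose together with G1. RAD54L (ENSG00000085999, chromosome 1, 46247688 to 46278473), a translocase that remodels the recombinase filament, had 8.92, 8.17 and 8.75 CPM in the control libraries, 22.6, 19.3 and 20.0 with G1 and 16.1, 14.5 and 17.0 with G7. The groups were apart, and its G7 change was the largest in the set. RAD54L rose by 1.26 ± 0.095 with G1 and 0.89 ± 0.097 with G7 (edgeR adjusted p = 2.23e-09 and 3.87e-06). Its relative RAD54B had 2.87, 3.16 and 3.45 CPM in the control libraries, 6.88, 6.17 and 6.80 with G1 and 4.82, 4.72 and 4.80 with G7. These levels were low but separate, and the log2 change was 1.05 ± 0.13 and 0.59 ± 0.14 (adjusted p = 1.46e-06 and 0.00415). MCM8, of a helicase pair that acts in recombination, rose by 0.73 with G1 and 0.39 with G7. Its partner MCM9 rose by 0.31 with G1, and its G7 value of -0.059 was not called. Counts of RAD54B and RAD54L are uncertain, since 59.1% of RAD54B exonic bases lie in exons of FSBP on the same strand and 25.1% of those of RAD54L in exons of LRRC41 on the other.

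End resection held both the largest rise of the set and members with no call. EXO1 (ENSG00000174371, chromosome 1, 241847967 to 241895148), the exonuclease of long-range resection, had 28.7, 28.6 and 30.7 CPM in the control libraries, 80.4, 80.2 and 89.5 with G1 and 44.6, 44.5 and 50.5 with G7. The lowest G1 library was above every G7 library and the lowest G7 library above every control. EXO1 rose by 1.502 ± 0.065 with G1 and 0.66 ± 0.067 with G7 (edgeR adjusted p = 1.08e-12 and 1.76e-06). RBBP8, which encodes CtIP, the cofactor that starts resection, had 21.1, 25.7 and 21.4 CPM in the control libraries, 37.0, 37.9 and 38.6 with G1 and 26.1, 27.9 and 31.0 with G7. It rose by 0.74 ± 0.080 and 0.32 ± 0.081 (adjusted p = 2.72e-07 and 0.00803), and the nearest G7 and NS libraries lay close together. The genes of the break-binding complex, MRE11, RAD50 and NBN, were not called against control. Over all genes 59.1% were called with G1 and 22.7% with G7. Whether these genes differ from the other resection genes was not tested. NBN had 133, 129.6 and 120.1 CPM in the control libraries, 129.9, 138 and 132 with G1 and 118, 125 and 122 with G7, with overlap in both comparisons and changes of 0.064 ± 0.047 and -0.070 ± 0.047 that were not called (adjusted p = 0.256 and 0.313). RAD50 had 84.9, 93.2 and 77.8 CPM in the control libraries, 83.3, 76.5 and 90.6 with G1 and 70.0, 75.0 and 87.2 with G7, also with overlap, and -0.031 ± 0.079 and -0.14 ± 0.078 were not called (adjusted p = 0.749 and 0.23). RAD50 counts are uncertain, because 79.7% of its exonic bases are shared with exons annotated to other genes on the same strand. MRE11, from the list of partner genes and named after its values were seen, had -0.017 ± 0.057 and 0.001 ± 0.056, not called.

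Of the complex that dissolves double Holliday junctions, all 4 genes rose with G1, where 30.4% of all genes were called higher. BLM (ENSG00000197299, chromosome 15, 90717327 to 90816165), its helicase, had 21.4, 22.7 and 22.2 CPM in the control libraries, 45.5, 41.9 and 46.0 with G1 and 29.3, 31.5 and 30.2 with G7. G1 libraries were about double the controls and G7 libraries lay between. BLM rose by 1.01 ± 0.063 with G1 and 0.45 ± 0.065 with G7 (edgeR adjusted p = 1.71e-10 and 6.59e-05). The scaffold RMI1 had 25.9, 27.1 and 25.1 CPM in the control libraries, 44.8, 47.4 and 44.1 with G1 and 32.1, 32.4 and 29.4 with G7, again without overlap. It rose by 0.81 ± 0.063 and 0.27 ± 0.064 (adjusted p = 3.31e-09 and 0.00592). RMI2 rose by 0.64 and the topoisomerase TOP3A by 0.31 with G1. With G7 RMI2 had 0.30 ± 0.12, not called (adjusted p = 0.0783). It was called without G7 replicate 3 (0.41, adjusted p = 0.00672) or NS replicate 3 (0.41, adjusted p = 0.043) and with no low count filter (0.30, adjusted p = 0.0431). TOP3A with G7 had 0.055 ± 0.062, not called. The related helicase WRN fell with G1, from 29.4, 29.5 and 27.1 CPM in controls to 25.5, 24.8 and 26.2, with 25.02, 28.4 and 25.9 with G7. The gap between NS and G1 libraries was small, and the change was -0.17 ± 0.068 (adjusted p = 0.0422). That call ended without any 1 of G1 replicates 1, 2 or 3 (-0.17, -0.14 and -0.18) or NS replicates 1 or 2 (-0.15 and -0.14), with DESeq2 (-0.15) and with no low count filter (-0.14).

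Among the genes that cut junctions and crosslinks, changes with G1 were small, lower for FAN1 and MUS81 and higher for SLX4. Over all genes 28.7% were called lower and 30.4% higher with G1. FAN1, a crosslink nuclease, had 12.8, 11.9 and 11.5 CPM in the control libraries, 8.71, 10.6 and 8.54 with G1 and 12.7, 10.7 and 9.27 with G7. G1 libraries lay below all controls, and the change was -0.37 ± 0.12 (edgeR adjusted p = 0.0149), which was not called without NS replicate 1 (-0.32), G1 replicate 1 (-0.32) or G1 replicate 3 (-0.31). MUS81, the catalytic subunit of a junction nuclease, had 17.8, 16.3 and 20.4 CPM in the control libraries, 15.3, 14.6 and 14.5 with G1 and 17.9, 15.8 and 17.1 with G7. It fell by 0.30 on the log2 scale with G1 (adjusted p = 0.00788), and without NS replicate 3 the value was -0.20 (adjusted p = 0.0719). Both overlapped the controls with G7 and were not called there (-0.14 and -0.10). Counts of both are uncertain, since 24.3% of FAN1 exonic bases lie in exons of MTMR10 and 14.1% of those of MUS81 in exons of CFL1 and EFEMP2, on the other strand. The nuclease scaffold SLX4 rose by 0.18 ± 0.077 with G1 at an adjusted p of 0.0467, with 18.4, 19.7 and 21.1 CPM in controls and 21.3, 23.0 and 23.2 with G1. Its call ended without NS replicate 1 (0.14) or 2 (0.18), G1 replicate 2 (0.17) or 3 (0.17), with upper quartile scaling (0.10), with DESeq2 (0.20) and without mitochondrially encoded genes (0.18). The junction nuclease GEN1 was listed at 0 in all libraries, and EME1, the partner of MUS81, had 1 count in G7 replicate 2 and 0 elsewhere. Such a 0 is not read as absence here, since HNRNPA1, which encodes an abundant RNA-binding protein, was also listed at 0 in all 9 libraries.

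Of 9 tested genes of the Fanconi core and its ubiquitination, 5 were called higher with G1 (55.6%) and 2 with G7 (22.2%). No core gene was called lower. Over all genes 30.4% and 13.1% were called higher, and 59.1% and 22.7% either way. The share of core genes with a call was thus near that over all genes. FANCB (ENSG00000181544, chromosome X, 14835961 to 14873069) had 5.52, 5.01 and 4.22 CPM in the control libraries, 10.2, 10.6 and 7.89 with G1 and 6.72, 6.39 and 6.89 with G7. No groups overlapped, G1 replicate 3 was the lowest of its group, and the log2 change was 0.98 ± 0.13 with G1 (edgeR adjusted p = 4.87e-06) and 0.46 ± 0.14 with G7 (adjusted p = 0.0245). The G7 call ended without NS replicate 2 (0.48) or 3 (0.35), without G7 replicate 1 (0.45) and with DESeq2 (0.45). UBE2T (ENSG00000077152, chromosome 1, 202331657 to 202341980), the ubiquitin-conjugating enzyme of the pathway, had 26.9, 25.9 and 28.7 CPM in the control libraries, 46.2, 49.8 and 48.6 with G1 and 36.1, 37.2 and 32.7 with G7. It rose by 0.82 ± 0.066 and 0.38 ± 0.067 (adjusted p = 4.25e-09 and 5.01e-04), and its groups were fully apart. FANCA rose by 0.56 with G1, the DNA translocase FANCM by 0.55 and FANCC by 0.29. Their G7 changes of 0.12, 0.10 and 0.079 were not called. FANCA is uncertain, as 23.6% of its exonic bases lie in exons of ZNF276 on the other strand.

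The other 4 core genes gave no call. FANCL, the ubiquitin ligase itself, had 15.6, 14.8 and 16.0 CPM in the control libraries, 15.6, 16.2 and 15.5 with G1 and 15.5, 14.5 and 14.3 with G7, and the groups overlapped throughout. FANCE, which bridges the core to FANCD2, had 10.5, 11.6 and 10.2 CPM in the control libraries, 11.6, 11.7 and 10.1 with G1 and 11.3, 11.9 and 11.7 with G7. FANCF, an adaptor subunit, had 25.5, 25.2 and 23.6 CPM in the control libraries, 23.6, 21.8 and 21.2 with G1 and 22.8, 28.2 and 20.7 with G7. In FANCF the widest spread was within G7, where replicate 2 was highest and replicate 3 lowest. FANCG, which works with FANCA, had 22.4, 21.6 and 24.9 CPM in the control libraries, 22.8, 21.6 and 22.7 with G1 and 26.0, 23.8 and 21.6 with G7. Their G1 changes were 0.025 ± 0.077 for FANCL, 0.049 ± 0.095 for FANCE, -0.15 ± 0.094 for FANCF and -0.047 ± 0.081 for FANCG, at edgeR adjusted p of 0.797, 0.675, 0.166 and 0.636. FANCF was called lower with upper quartile scaling (-0.24, adjusted p = 0.0337). FANCL and FANCF counts are uncertain too, with 19.7% and 11.3% of their exonic bases in exons on the other strand. The substrates of the core, the ID2 pair, both rose. FANCD2 (ENSG00000144554, chromosome 3, 10026414 to 10101930) had 26.0, 22.8 and 20.4 CPM in the control libraries, 36.2, 37.1 and 38.9 with G1 and 28.9, 29.4 and 26.1 with G7. FANCI (ENSG00000140525, chromosome 15, 89243949 to 89317261) had 91.5, 86.8 and 84.1 CPM in the control libraries, 149, 160.4 and 148 with G1 and 123, 124 and 112 with G7. In both genes every hairpin library was above every control library, though the lowest FANCD2 library with G7 was only just above the highest control. FANCD2 rose by 0.70 ± 0.079 and 0.29 ± 0.080 (adjusted p = 4.14e-07 and 0.0133) and FANCI by 0.81 ± 0.052 and 0.45 ± 0.052 (adjusted p = 2.45e-10 and 6.87e-06). Without NS replicate 3 the G7 change of FANCD2 was 0.20 and not called (adjusted p = 0.0856).

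Among the checkpoint kinases, ATM fell while ATR and CHEK1 rose with G1. ATM (ENSG00000149311, chromosome 11, 108222484 to 108369102), the kinase that responds to double-strand breaks, had 32.0, 33.6 and 30.4 CPM in the control libraries, 19.7, 20.4 and 19.6 with G1 and 25.4, 26.3 and 23.9 with G7. All G1 libraries were lowest, G7 libraries lay between, and no groups overlapped. ATM fell with both hairpins, at log2 changes of -0.68 ± 0.067 with G1 (edgeR adjusted p = 7.78e-08) and -0.35 ± 0.064 with G7 (adjusted p = 7.54e-04), and it was the only member called lower with G7. Its target CHEK2 had 10.9, 11.2 and 9.94 CPM in the control libraries, 11.1, 10.96 and 12.1 with G1 and 12.4, 12.2 and 11.97 with G7. CHEK2 was not called with G1 (0.10 ± 0.090, adjusted p = 0.382) or with G7 (0.20 ± 0.088, adjusted p = 0.115), although all G7 libraries lay above the controls. ATR, the kinase of stalled forks, had 77.9, 79.3 and 73.8 CPM in the control libraries, 99.6, 101 and 89.8 with G1 and 79.3, 79.7 and 79.7 with G7. It rose by 0.33 ± 0.051 with G1 (adjusted p = 1.93e-05), and 0.049 ± 0.051 with G7 was not called. ATR is uncertain, as 16.4% of its exonic bases lie in exons of another gene on the other strand. Its target CHEK1 (ENSG00000149554, chromosome 11, 125625136 to 125676255) had 16.4, 19.8 and 18.7 CPM in the control libraries, 31.4, 32.6 and 31.8 with G1 and 23.5, 24.6 and 23.0 with G7. CHEK1 libraries separated fully, with rises of 0.80 ± 0.072 and 0.37 ± 0.073 (adjusted p = 2.43e-08 and 0.00143). ATRIP, which recruits ATR, was listed at 0.

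**Figure D2:**
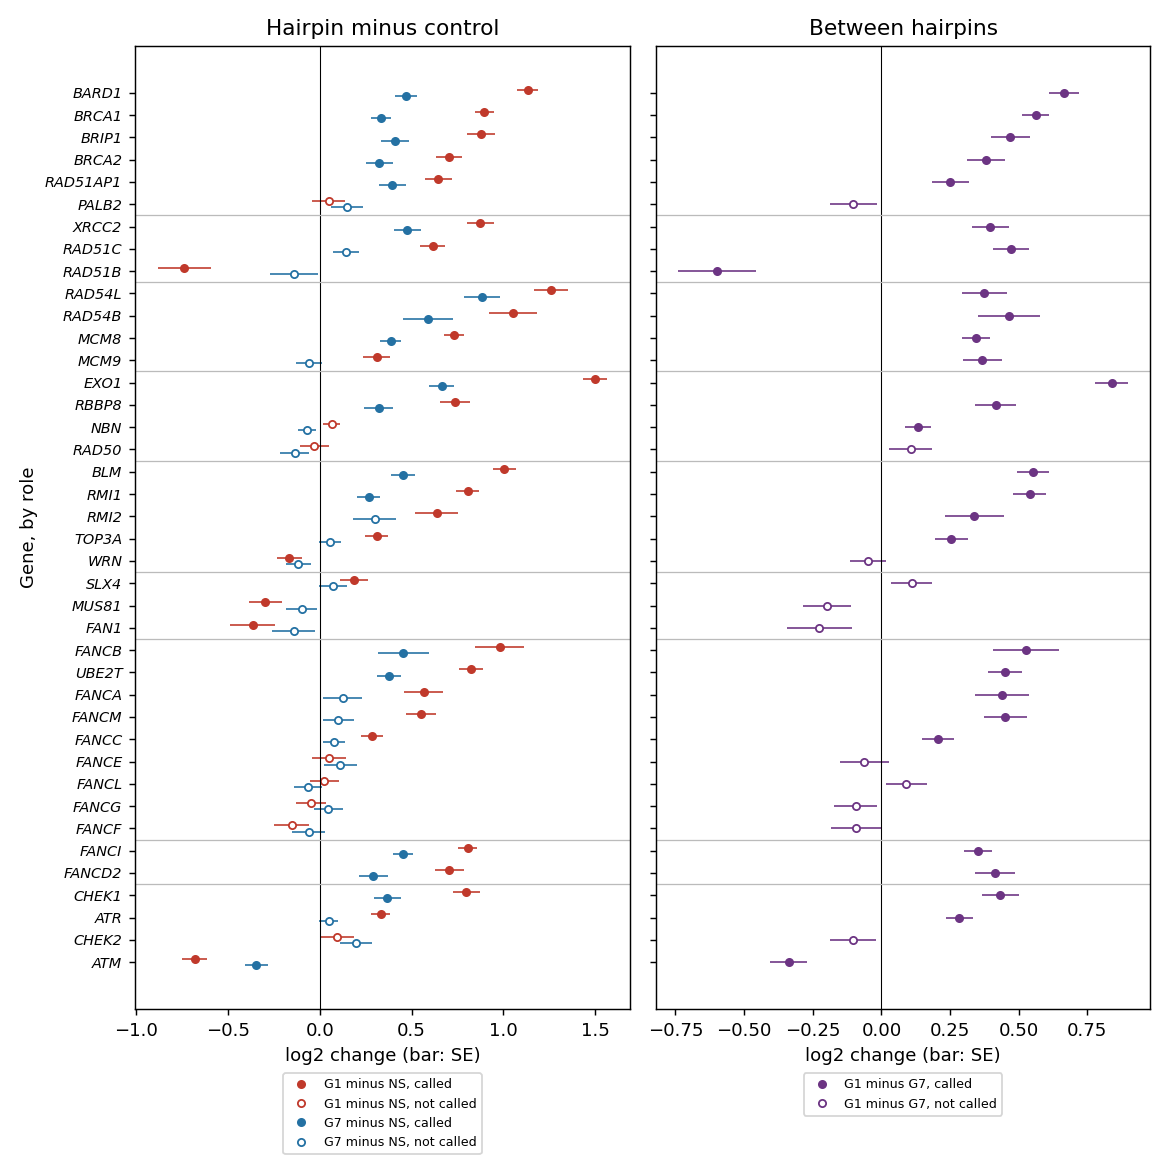
The left panel gives the log2 change of each tested gene, grouped by role, with G1 (red) and G7 (blue) against NS, and the right panel the G1 minus G7 difference, with SE as bars and filled points for an adjusted p under 0.05. EXO1 has the largest G1 rise (1.502) and RAD54L the largest G7 rise (0.89). RAD51B, ATM, FAN1, MUS81, WRN and FANCF lie left of 0 in both panels, and of these only ATM was called lower with G7.

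Compared directly, the hairpins differed over most of the set. Of 40 tested members G1 gave the higher level in 27 and the lower level in 2, RAD51B and ATM, with a median log2 difference of 0.35. Over all genes 44.9% differed, 23.3% higher and 21.6% lower with G1 (3092 and 2870 genes, or 2346 and 3751 with upper quartile scaling), with a median of -0.014. Of the members higher with G1, EXO1 had the largest difference, 0.84 ± 0.060 (edgeR adjusted p = 3.18e-09), followed by BARD1 at 0.67 ± 0.053 and BRCA1 at 0.56 ± 0.050. ATM was lower with G1, at a difference of -0.34 ± 0.067 (adjusted p = 4.69e-04). NBN was called higher with G1 than with G7 (0.13 ± 0.047, adjusted p = 0.0255), though it was not called against control. That call ended without G1 replicate 2 (0.11), without G7 replicate 1 (0.12) and with upper quartile scaling (0.075). RMI2, at 0.34 ± 0.11, lost its call without G1 replicate 3 (0.31) or G7 replicate 3 (0.22). MUS81 and FAN1 were not called here (-0.20 and -0.23). FAN1 was called without G1 replicate 2 (-0.34) or G7 replicate 3 (-0.34), and RAD50 without G7 replicate 3 (0.20). MUS81 was called with upper quartile scaling (-0.26), with only the 2 groups compared (-0.20) and without NS replicate 3 (-0.20).

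Levels per kilobase of annotated exon (RPKM from TMM-scaled CPM) ranked the members in control cells. NBN was highest at 20.7 ± 1.11 RPKM (SD, n = 3), then UBE2T at 16.4 ± 0.854, FANCI at 11.3 ± 0.485 and RAD51AP1 at 11.2 ± 1.38. FANCI and RAD51AP1 did not differ beyond their SD. The lowest tested members were ATM at 1.33 ± 0.0664, FANCA at 0.760 ± 0.0446, RAD51B at 0.684 ± 0.0422 and RAD54B at 0.595 ± 0.0546, and among the last 3 of these each differed from the next by less than the sum of their SDs. The median over 40 members was 3.65 RPKM. With G1 the order changed, since UBE2T reached 29.2 ± 1.12 and EXO1 20.1 ± 1.28 RPKM, beside 21.6 ± 0.696 for NBN. These levels use all annotated exons of a gene as its length, so a gene with long or unused exons is placed too low. The places of members called uncertain above, RAD54B and FANCA among them, are uncertain too.

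**Figure D3:**
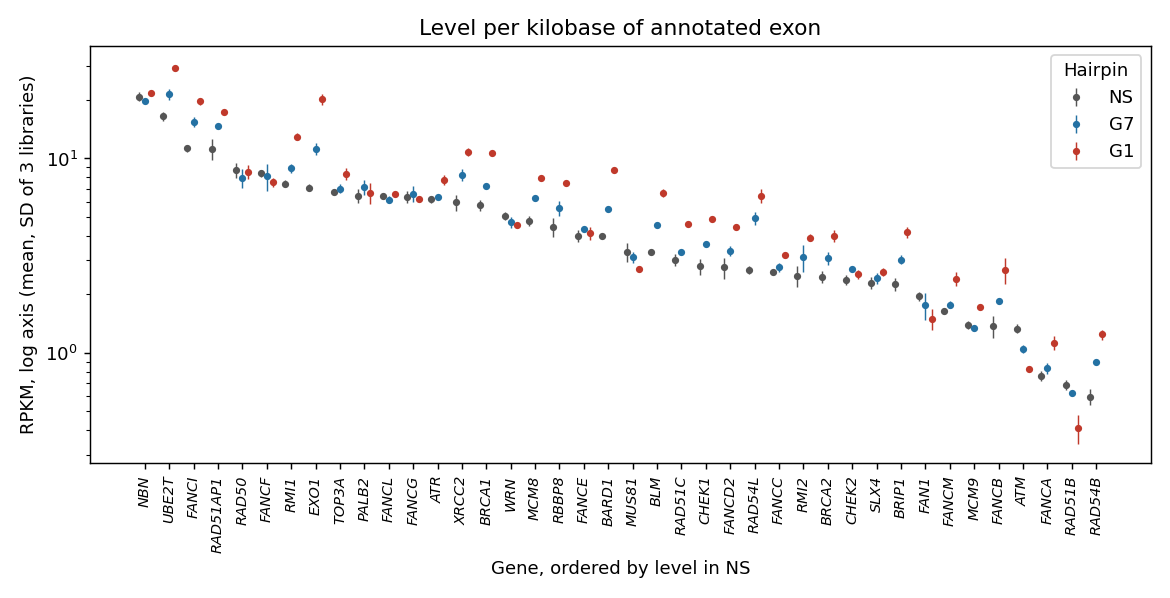
Points give the mean RPKM (log axis) and bars the SD of 3 libraries for the 40 tested genes, ordered by their level with NS, in grey for NS, blue for G7 and red for G1. NBN leads with NS at 20.7 RPKM and RAD54B, whose counts are uncertain, is last at 0.595.

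Other genes of the same pathways were taken from a list of 59 partner genes. Of 54 tested, 29 were called higher and 9 lower with G1 (median log2 change 0.26), 17 higher and 1 lower with G7 (0.10), and 24 higher and 6 lower with G1 against G7 (0.12). As shares of those tested these were 53.7% and 16.7% with G1, 31.5% and 1.85% with G7, and 44.4% and 11.1% with G1 against G7, beside 30.4% and 28.7%, 13.1% and 9.64%, and 23.3% and 21.6% over all genes. CLSPN, the adaptor through which ATR activates CHEK1, rose by 1.62 ± 0.083 with G1 and 0.43 ± 0.091 with G7. CENPX, a partner of FANCM, rose by 1.01 and 0.62, the resection nuclease DNA2 by 0.87 and 0.41, and the fork protection gene TIMELESS by 0.87 and 0.44. EME2, another partner of MUS81, fell to a log2 change of -0.88 ± 0.195 with G1 and -0.60 ± 0.182 with G7. Its counts were low, at 19 to 31 per G1 library. RAD17, which loads the checkpoint clamp, changed by -0.54 with G1, RAD52, a strand annealing protein, by -0.50, and ZSWIM7, of a complex that aids the recombinase, by -0.32, all called. Their G7 values of -0.17, -0.21 and -0.11 were not called.

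End joining repairs breaks without a template. Of 17 tested genes of a list of 19, 9 were called higher and 2 lower with G1 (median 0.28), 5 higher and 0 lower with G7 (0.14; 12 not called), and 8 higher and 1 lower with G1 against G7 (0.20). The shares called higher and lower were 52.9% and 11.8% with G1, 29.4% and 0% with G7, and 47.1% and 5.88% with G1 against G7. Over all genes the same shares were 30.4% and 28.7%, 13.1% and 9.64%, and 23.3% and 21.6%. The 0 lower calls with G7 in edgeR were also 0 with DESeq2, 1 gene was lower at an unadjusted p under 0.05, and 1 was called lower without G7 replicate 3. POLQ, the polymerase of microhomology-mediated joining, rose by 1.01 ± 0.078 with G1 and 0.41 ± 0.081 with G7. XRCC6 and XRCC5, the Ku subunits, rose by 0.82 and 0.72 with G1 and by 0.31 and 0.28 with G7. PARP1 rose by 0.69 and 0.23. The nuclease DCLRE1C (Artemis) changed by -0.39 and the polymerase POLM by -0.34 with G1, both called. Whether the recombination set differs from these lists was not tested.

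Neighbouring genes on the other strand were examined because several members share a promoter region with one. Only genes that start upstream of the member's start were searched, so those that start inside a member were left out. NPAT, whose exons overlap those of ATM on the other strand, was not among those found. Within 1000 bases upstream of their start, 19 members had 20 such neighbours in GENCODE 29, of which 13 were tested, 11 of them next to a tested member. In 9 of these pairs the member was called higher with G1, and the neighbour was then called higher in 3, lower in 3 and not called in 3. Over all genes 30.4% were higher and 28.7% lower, so this split was near the background. RMI1 and HNRNPK, 95 bases apart, changed by 0.81 and 0.61, MCM8 and the tRNA methylation gene TRMT6, 94 bases apart, by 0.73 and 0.39, and FANCM and FKBP3 by 0.55 and 0.58. FANCB and MOSPD2, 372 bases apart, went opposite ways, at 0.98 and -0.56 with G1 and 0.46 and -0.37 with G7, all called. With G1 so did SLX4 and DNASE1 (0.184 and -0.693) and FANCD2 and the pseudogene CIDECP (0.705 and -0.436), all called. BRCA1 rose by 0.90 beside NBR1 at -0.074, not called. PALB2 and DCTN5, 82 bases apart, were both not called (0.047 and 0.10). The 80 bases before the RefSeq starts of MCM8 and PALB2 follow, on the strand of each gene, as a pair in which both genes rose and a pair in which neither was called, with CCAAT boxes (here on the other strand) in capitals.
MCM8, chr20:5950572-5950651, plus strand: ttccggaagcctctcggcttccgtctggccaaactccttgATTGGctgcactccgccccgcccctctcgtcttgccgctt
PALB2, chr16:23641311-23641390, minus strand: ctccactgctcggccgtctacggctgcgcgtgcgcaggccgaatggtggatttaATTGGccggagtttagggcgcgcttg
Each stretch holds 1 CCAAT box, and the E2F match of MCM8 printed above lies after the start, outside this stretch. PALB2 held no E2F match in its window.

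**Figure D4:**
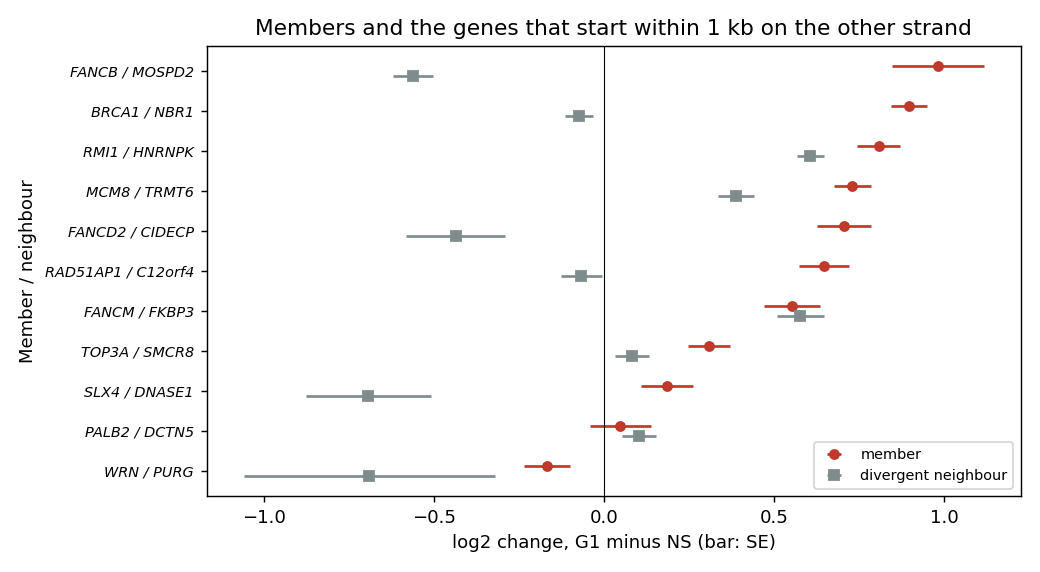
For the 11 pairs of a member and a neighbour that starts within 1000 bases upstream on the other strand, red circles give the member's and grey squares the neighbour's log2 change with G1 against NS, with SE as bars. Circles and squares lie together for FANCM and FKBP3. They lie on opposite sides of 0 for FANCB and MOSPD2, SLX4 and DNASE1, and FANCD2 and CIDECP, among others.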

How the data were processed

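The authors deposited raw read counts per Ensembl gene for 9 libraries, 1 column each. The build hg38 (GRCh38), the counter HTSeq 0.6.0 and the aligner TopHat2 2.1.0 are named, per the submitters' processing notes. Strand setting and annotation release: not given in the sources used here, so tested members with over 10% of their exonic bases in exons of other genes are called uncertain; XRCC3, EME1 and ATRIP, not tested, also pass 10%. Of 60675 rows, 57055 matched GENCODE 29, which gave symbols, coordinates and exonic lengths.

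Counts were fitted in edgeR 4.0.16 (R 4.3.3): filterByExpr by group (13264 genes), TMM scaling, a quasi-likelihood model with a mean per group over all 9 libraries (common dispersion 0.00217), and 2-sided contrasts with Benjamini-Hochberg adjustment over all tested genes. The test was tried on simulated counts in which few genes changed, all upward. That does not cover data in which most genes were called, as with G1. A count of 0 allows up to 3 counts, or 0.134 to 0.236 CPM, for counting error only. Alternatives were other scalings, no filter, DESeq2 1.42.0, fewer samples and the replicate number as a block. Within groups, chi-square per degree of freedom was 1.46 to 22.6, and every library was kept as a replicate. The lowest value, between G7 replicates 1 and 2, shows little spread beyond counting error and cannot tell whether they were separate cultures.

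The members, role groups and lists were chosen with earlier results of these data known. Library values are given for the 2 members with the largest G1 change per role, and for those called lower, not called or not tested. For other lists the 4 largest called changes each way with G1 are named. Motifs and the neighbour search are descriptions, the latter added after the first values were seen.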

Additional observations from a re-analysis of the deposited data

How the results depend on the processing

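Over 16 alternatives, 28 of 32 members called with G1 against control, 17 of 19 with G7 and 27 of 29 between the hairpins kept their call in all of them, and no called value changed sign. The exceptions are given above beside their genes. The median log2 change of the set with G1 was 0.503 with upper quartile scaling and 0.548 to 0.629 with each library left out. It was 0.157 to 0.226 with G7 and 0.331 to 0.371 between hairpins with each library left out, and the latter was 0.289 with upper quartile scaling and 0.377 with no low count filter. With each library left out, 3 to 5 members were called lower with G1, with the lowest count without NS replicate 1, G1 replicate 1 or G1 replicate 3, and 1 to 2 with G7. Partner genes called lower numbered 2 to 7 between hairpins and 0 to 2 with G7, and end joining genes called lower with G7 0 to 1. Called higher with G7 were 14 to 20 partner genes and 5 to 6 end joining genes, again with each library left out. With no low count filter and with DESeq2, 3 and 2 partner genes were lower between hairpins, and with upper quartile scaling and DESeq2, 2 and 0 were lower with G7. The causes were not tested.

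Values near 0 that were not called changed sign in some settings. With upper quartile scaling the G1 change was -0.038 for FANCE, -0.062 for FANCL, -0.023 for NBN and -0.040 for PALB2. With each library left out, the G1 change ran from -0.049 to 0.118 for PALB2, -0.095 to 0.039 for RAD50, -0.089 to 0.021 for FANCG and -0.003 to 0.055 for FANCL. The G7 change ran from -0.182 to 0.034 for FANCF and -0.025 to 0.118 for FANCG. The difference between hairpins ran from -0.098 to 0.001 for FANCE, -0.185 to 0.031 for FANCF and -0.087 to 0.001 for WRN.

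The labels number replicates 1 to 3 in each group but do not say what a number shares. Same-numbered libraries correlated at -0.076 to 0.199 and others at -0.191 to 0.186 (deviations from group means across genes), and 3 of 9 libraries correlated best with their own number. With the replicate block, 27 members were higher and 5 lower with G1, 18 and 1 with G7, and 27 and 2 between hairpins, as without it, and the medians were 0.588, 0.173 and 0.347.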
